A study of Zea mays with 10 samples.

Results

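The inbred lines B73 and H99 of maize (Zea mays) were compared in the immature ear through their F1 hybrid, B73xH99, which served as the common reference. On every array the hybrid was hybridised together with 1 inbred, which was B73 on 5 of the 10 cDNA arrays and H99 on the other 5. For every gene the value studied here is the mean of the 5 H99 arrays minus the mean of the 5 B73 arrays, on the log2 scale of the deposited ratios, called the inbred contrast below. All 10 arrays of the series entered it. The arrays held 16200 spots, read as 5400 EST clones of 3 successive spots, of which 811 carried 1 of 213 gene names. Clones of one name were averaged to 1 gene, and the 213 genes with the unnamed clones gave 4763 features that could be tested. The 213 named genes, all tested, are the members described here.

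All plants were untreated and grown in the open field. Ears were taken at stage V15 over 3 days, without silks and ear tips, and each genotype was a bulk of 10 plants. Poly(A) RNA came from at least 3 extractions per genotype that were mixed before purification. The arrays of one inbred were therefore separate labellings of the same RNA pool, so that every p-value below speaks of labelling and hybridisation error, and none of plant-to-plant spread. The dyes ran forward on arrays 1 to 3 and reversed on arrays 4 and 5 of each inbred.

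The labels and the design text leave unsettled whether the ratios are inbred over hybrid or hybrid over inbred. The design text defines its ratios as F1 against inbred, by which a positive contrast would mean a higher level in B73 than in H99; the array titles name the inbred first, which read as a ratio would give the opposite. Contrasts are therefore given as positive or negative, with no direction between the inbreds. A positive contrast means that the ratios of the H99 arrays lay above those of the B73 arrays. Whether reversed arrays had been turned to the direction of the forward ones before deposit is not stated; they were used as deposited. With the reversed arrays of both inbreds turned, 0 of the named genes passed in limma (26 at an unadjusted p under 0.05), and with those of B73 alone turned 0 passed as well (29 at an unadjusted p under 0.05). With those of H99 alone turned 46 named genes passed, against 26 with all arrays as deposited.

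A common reference links genotypes that were never hybridised together. The hybrid enters both means, and what it adds to each ratio is lost in the difference. A maize ear at this stage bears spikelet and floral meristems, in which MADS-box transcription factors set the identity of the organs and the homeobox gene kn1 maintains the meristem. Inbred lines of maize are known to differ widely in sequence and in the level of many transcripts, and a cDNA spot also binds related transcripts of a gene family. Log2 ratios hold no level, so the tissue could not be checked against its markers by abundance. Of the listed markers of other tissues, taken by symbol alone, 2 of the photosynthesis list were on the array under a name. None of the listed kernel or anther markers was.

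Missing spots made up 0.253% to 2.31% of an array. Array medians lay between -0.001 and 0. The SD over the spots of an array was 0.218 to 0.362 for B73 and 0.172 to 0.228 for H99. Across features, the 3 forward B73 arrays had pairwise correlations of 0.76 to 0.81, and pairs of a forward and a reversed B73 array 0.37 to 0.54. The reversed B73 pair had 0.60. The H99 arrays were less alike among forward arrays, at 0.34 to 0.63, and between the orientations, at -0.17 to 0.21, with 0.57 for the reversed pair. Between the inbreds, the reversed H99 arrays had 0.04 to 0.37 with forward and 0.18 to 0.40 with reversed B73 arrays. These ranges lie above those of the reversed H99 arrays with their own forward arrays. The forward H99 arrays had -0.26 to 0.32 with forward and -0.14 to 0.12 with reversed B73 arrays. These correlations are descriptions, as features of 1 array share its labelling and print.

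Of the 213 named genes 26 passed (12.2%), 9 with a positive and 17 with a negative contrast, at an adjusted p of 0.05 (limma on all 4763 features, Benjamini-Hochberg). Over all features the shares were 19.4% in either sign, 8.57% positive and 10.9% negative. Among unnamed clones 900 of 4550 (19.8%) passed. On 27 named genes (12.7%) the 5 B73 arrays and the 5 H99 arrays did not overlap, against 11.5% of all features, and 19 of the 26 genes that passed were among them. The contrasts were small: among the genes reported here they ran from -0.60 for Pti1d to 0.52 for prp2, which are 1.51-fold and 1.44-fold differences. At an unadjusted p under 0.05 there were 56 named genes.

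The count of named genes that passed depended on single arrays. It was 15 without B73 array 1, 15 without B73 array 3, 15 without H99 array 2 and 14 without H99 array 3, but 41 without B73 array 5. Under each of the 10 settings that leave out an array, 13 of the 26 passed, among them ZAG3, MNB1b, GPC1, prp2, NIP2-3, sdg110, HD6, CDPK2, MFS18, gpc2, LOC732725 and me2. Of these, prp2, NIP2-3, CDPK2, MFS18 and me2 did not pass when each feature had its own variance. For the genes described below that are not among them, the arrays whose removal took the call away are given with the gene.

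The share that passed was not the same for genes with 1 clone and for means over several clones. Of 103 genes with 1 clone 21 passed (20.4%), against 19.4% over all features. Of 40 genes with 2 clones 1 passed (2.5%), of 34 with 3 to 4 clones 1 (2.94%) and of 36 with 5 or more clones 3 (8.33%). Taken one by one, the clones of these 4 classes passed in 19.1% to 21.4%, against 20.3% over all 5357 clones tested (9.15% positive and 11.2% negative). In limma the variance of each feature was drawn towards one common to all features, most of them single clones. With each feature's own variance 20 named genes passed, among them gpc3, a mean of 2 clones that did not pass in the main fit. The part of the common variance in the lower shares was not tested.

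**Figure D1:**
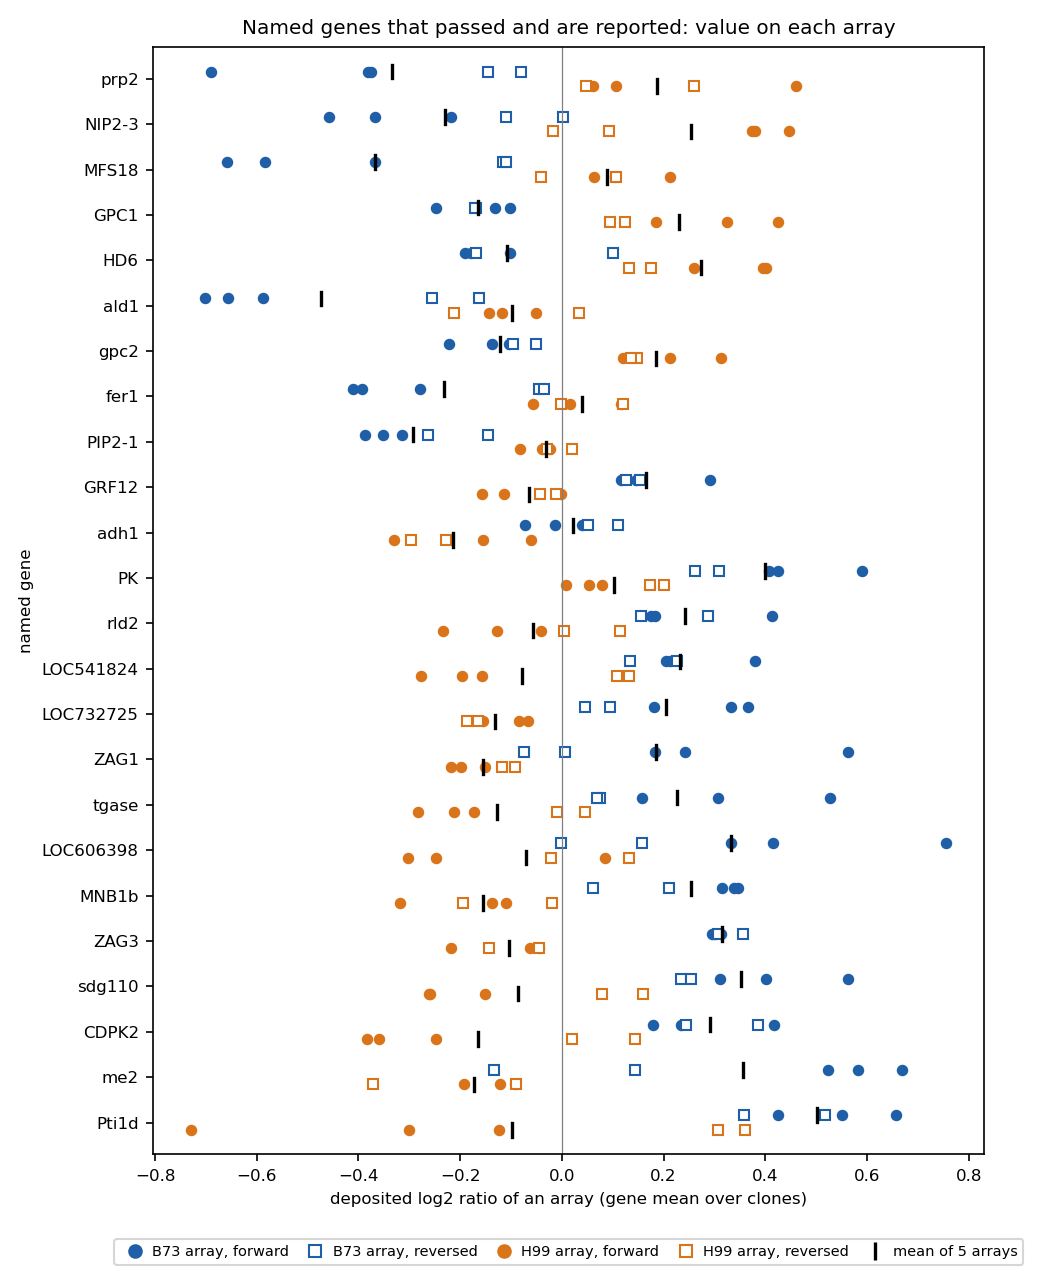
Named genes that passed and are reported here, one per line, ordered by contrast (24 of the 26). The x axis is the deposited log2 ratio of an array as the mean over the clones of the gene; blue marks are B73 arrays and orange marks H99 arrays, filled circles forward and open squares reversed arrays, and black bars the means of 5 arrays. B73 marks lie left of the H99 marks in the upper 9 genes and right of them in the lower 15, with overlap in 7 genes, and the open squares of the inbreds mostly lie closer together than the filled circles.

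Glycolysis and fermentation held 4 of the 26 genes, 3 positive and 1 negative among 8 named genes of these pathways, with a median contrast of 0.08 against 0.02 over all features. Over all features 8.57% passed with a positive and 10.9% with a negative contrast. GPC1, which encodes the glycolytic enzyme glyceraldehyde-3-phosphate dehydrogenase of the cytosol, lay at -0.10, -0.13 and -0.25 on the forward and at -0.17 and -0.17 on the reversed B73 arrays. On the H99 arrays GPC1 gave 0.43, 0.33 and 0.19 forward and 0.12 and 0.09 reversed. All H99 arrays were above all B73 arrays, and the reversed arrays lay closer to 0 than the forward ones in H99 only. The contrast of GPC1 was 0.40 ± 0.083 (SE, n = 5 and 5; limma adjusted p = 0.00698), a 1.32-fold difference. All 10 clones of GPC1 were positive, from 0.17 to 0.69, and 5 of them passed on their own.

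A second gene of the same enzyme, gpc2, lay between -0.22 and -0.05 on the B73 arrays and between 0.12 and 0.31 on the H99 arrays, again without overlap. Its contrast was 0.31 ± 0.075 (SE; limma adjusted p = 0.0129). Of its 7 clones 5 were positive, 4 of them past the threshold, and 2 were negative at -0.15. The related gpc3 had 2 positive clones and a contrast of 0.11 (95% interval -0.04 to 0.26), which did not pass, although its arrays did not overlap either. All 3 genes were positive under every setting tried. Transcripts of the 3 genes are alike in sequence, and how far their spots bind each other's cDNA was not tested.

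Other steps of the pathway did not share 1 sign. The aldolase gene ald1, with 1 clone, was negative on all 5 B73 arrays, at -0.66, -0.70 and -0.59 forward and -0.26 and -0.16 reversed. Its H99 values were -0.14, -0.12 and -0.05 forward and 0.03 and -0.21 reversed, which overlap with B73 through the reversed arrays. The contrast was 0.38 ± 0.107 (SE; limma adjusted p = 0.0235), and the call was lost without any one of B73 arrays 1, 2 and 3 or H99 arrays 3 and 4. Alcohol dehydrogenase adh1, which regenerates NAD+ in fermentation, went the other way. Its 5 B73 values ran from -0.07 to 0.11 and its H99 values from -0.33 to -0.06, and 1 array of each inbred overlapped.

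The adh1 contrast was -0.24 ± 0.079 (SE; limma adjusted p = 0.0455), with all 4 clones negative and 2 of them past the threshold. Of the 26 genes adh1 was the least steady: of the 10 settings with an array left out, it passed only in that without H99 array 2, and it turned to 0.04 with the reversed arrays of both inbreds turned. It was also 1 of only 2 genes of the 26, with ZAG3, whose contrast was larger on the reversed arrays (-0.34) than on the forward ones (-0.17). The enolases eno1 and eno2 lay at -0.11 and 0.00, and the pyruvate decarboxylase gene pdc3 at 0.06; none passed.

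Among 8 regulators of the inflorescence 2 passed, both negative MADS-box genes, against 19.4% of all features in either sign and 10.9% negative. All 7 named MADS-box genes had a negative contrast, with a median of -0.27 against 0.02 over all features. Of their 18 clones 7 passed, all negative, against 20.3% of all clones in either sign and 11.2% negative. In all features 53.8% of the contrasts were positive. ZAG3, a MADS-box gene of floral meristems, had the lowest p of the named genes. Its 1 clone lay at 0.31, 0.30 and 0.29 on the forward and 0.36 and 0.31 on the reversed B73 arrays. The H99 arrays gave -0.05, -0.06 and -0.22 forward and -0.14 and -0.04 reversed.

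The 5 B73 values of ZAG3 were nearly equal and stayed apart from all H99 values. The contrast was -0.42 ± 0.073 (SE; limma adjusted p = 0.00271; 95% interval -0.57 to -0.26), a 1.34-fold difference. It was alike in both orientations, -0.41 forward and -0.43 reversed, and passed in the reversed arrays alone. An exact two-sided permutation test over all splits of the 10 arrays gave p = 0.00794 for ZAG3, the smallest that 5 against 5 can reach. All 27 named genes without overlap reach it by construction, of which 19 passed in limma.

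ZAG1, related to the organ identity gene AGAMOUS of Arabidopsis, had B73 values of 0.18, 0.24 and 0.56 forward but 0.01 and -0.07 reversed, and H99 values between -0.22 and -0.09. The groups did not overlap, but B73 array 5 and H99 array 5 were close, at -0.07 and -0.09. Its contrast was -0.34 ± 0.104 (SE; limma adjusted p = 0.0331), -0.52 forward and -0.07 reversed. The call was lost without any one of the 6 forward arrays. In the other MADS-box genes the contrast was -0.30 for m28, -0.27 for zmm31, -0.24 for m4, -0.22 for zmm24 and -0.03 for zap1, a gene related to APETALA1. None of these 5 passed, with limma adjusted p from 0.0594 for m4 to 0.775 for zap1.

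The 7 signs were less uniform within an orientation. All 7 were negative on the forward arrays (median -0.41), while on the reversed arrays 6 were negative and zmm31 was positive at 0.04 (median -0.07). Scaling all arrays to one spread or to the same quantiles left all 7 negative, with medians of -0.22 and -0.21. The homeobox gene kn1 lay at 0.05 over 11 clones of which 6 were positive and 5 negative, with 1 clone past the threshold in each sign (limma adjusted p = 0.607). In bulk tissue fewer cells of a type and less RNA per cell cannot be told apart. The plot of gene values by list shows the MADS-box genes beside the other lists.

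**Figure D2:**
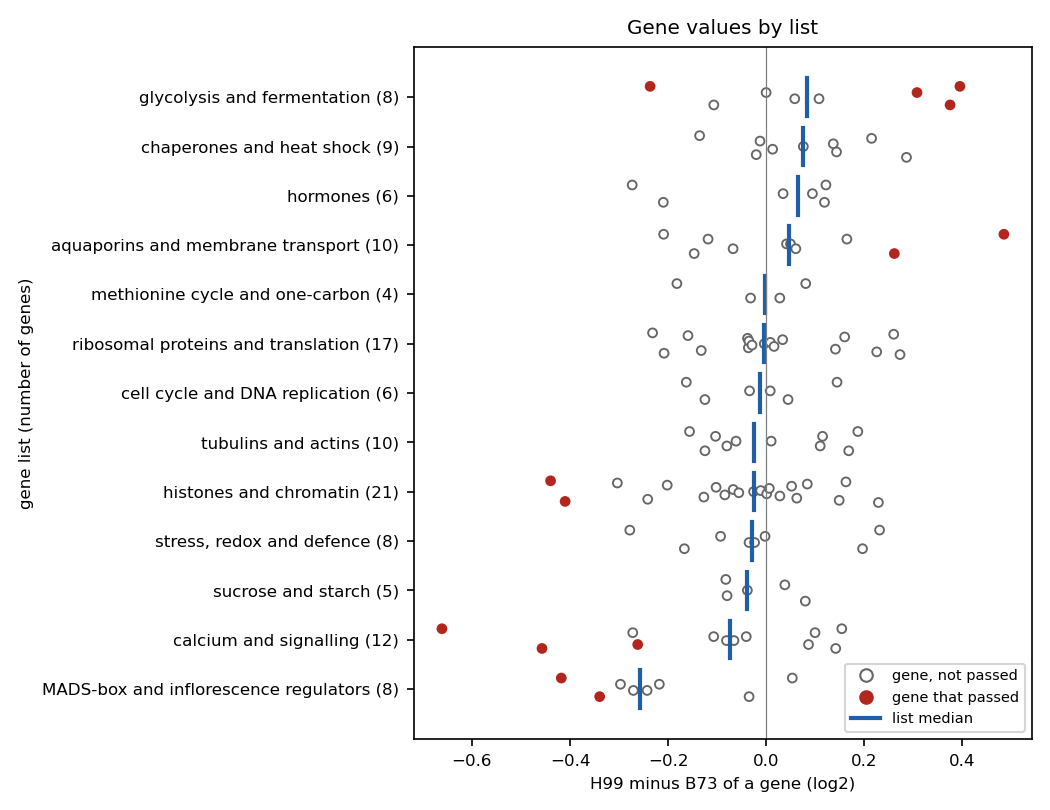
Inbred contrast (x axis, log2) of each named gene in the 13 lists with 4 or more genes, ordered by median. Red points passed, open points did not, and blue bars are list medians, from 0.08 for glycolysis and fermentation to -0.26 for the MADS-box and inflorescence regulators, the only list here with all but 1 gene on 1 side of 0; points are shifted vertically for legibility.

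Both named genes of the leaf and husk marker list, which was set by symbol alone, were negative too. The malic enzyme gene me2 lay at 0.52, 0.58 and 0.67 on the forward B73 arrays but at -0.13 and 0.14 on the reversed ones, and between -0.37 and -0.09 on the H99 arrays. Its groups overlapped through B73 array 4. The contrast of me2 was -0.53 ± 0.131 (SE; limma adjusted p = 0.0135). Lhcb5-2, which encodes a chlorophyll a/b binding protein of the photosystem II antenna, ran from 0.06 to 0.20 in B73 and from -0.17 to 0.01 in H99. The groups of Lhcb5-2 did not overlap, but its contrast of -0.19 (95% interval -0.34 to -0.03) did not pass (limma adjusted p = 0.0832). Whether me2 marks leaf tissue in maize was not tested, nor was the part of leaf tissue in the negative contrasts.

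Genes of calcium and other signalling formed a list of 12, of which 3 passed, all negative, with a median contrast of -0.07. The share of all features that passed was 19.4% in either sign and 10.9% negative. CDPK2 is the 1 of the 3 reported here. CDPK2, a calcium-dependent protein kinase, lay at 0.18, 0.23, 0.42, 0.39 and 0.24 on B73 arrays 1 to 5 and at -0.25, -0.38, -0.36, 0.14 and 0.02 on H99 arrays 1 to 5. The reversed H99 arrays came close to the lowest B73 array without reaching it. Its contrast was -0.46 ± 0.105 (SE; limma adjusted p = 0.00988). The phosphatase gene PP2C had a contrast of -0.27 that did not pass (limma adjusted p = 0.0924), and Ann7, an annexin that binds membranes with calcium, lay at 0.14 with no overlap between its arrays but an adjusted p of 0.162 in limma. Pti1d, named after the tomato kinase Pti1 that acts with the resistance kinase Pto, stood in no list. It lay at 0.42, 0.55, 0.66, 0.52 and 0.36 on B73 arrays 1 to 5 and at -0.12, -0.30, -0.73, 0.31 and 0.36 on H99 arrays 1 to 5.

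Pti1d was thus apart from B73 on the forward H99 arrays only, and level with it on the reversed ones. The contrast over all arrays, -0.60 ± 0.16 (SE; limma adjusted p = 0.018), joins -0.93 forward with -0.10 reversed. Without H99 array 2 it no longer passed.

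Of 21 chromatin genes 2 passed, both negative, against 19.4% of all features in either sign and 10.9% negative. The list median was -0.03. MNB1b, a high mobility group protein that bends DNA, lay at 0.34, 0.32 and 0.35 on the forward and 0.06 and 0.21 on the reversed B73 arrays. Its H99 values were -0.32, -0.14 and -0.11 forward and -0.19 and -0.02 reversed. All B73 arrays were positive and all H99 arrays negative. The contrast was -0.41 ± 0.085 (SE; limma adjusted p = 0.00691). The other gene, sdg110, of the SET domain group that holds histone methyltransferases, ran from 0.23 to 0.56 in B73 and from -0.26 to 0.16 in H99, without overlap. Its contrast was -0.44 ± 0.10 (SE; limma adjusted p = 0.00956), and -0.65 forward against -0.13 reversed.

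Next in this list by p came hdt102, a histone deacetylase of the plant HD2 type, and smh4, a single-myb-histone protein, at -0.30 and -0.24. Neither passed (limma adjusted p = 0.0594 and 0.109). The remaining 17 chromatin genes did not pass either, and of all 21 genes 9 were positive and 12 negative.

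In the list of water channels and membrane transport 2 of 10 genes passed, both positive and both aquaporins, and the median was 0.05. Of all features 19.4% passed in either sign and 8.57% as positive. NIP2-3, of the nodulin 26-like group, lay at -0.22, -0.37 and -0.46 on the forward B73 arrays and at 0.37, 0.45 and 0.38 on the forward H99 arrays. On the reversed arrays B73 reached 0.0017 and -0.11, and H99 -0.02 and 0.09, so that the inbreds overlapped there. The contrast over all arrays was 0.49 ± 0.110 (SE; limma adjusted p = 0.00908). PIP2-1, whose product carries water across the plasma membrane, was lower in size but had 6 clones, all positive, from 0.02 to 0.44. It lay at -0.35, -0.32, -0.39, -0.26 and -0.14 on B73 arrays 1 to 5 and between -0.08 and 0.02 on the H99 arrays.

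The contrast of PIP2-1 was 0.26 ± 0.075 (SE; limma adjusted p = 0.0248), 0.30 forward and 0.20 reversed. The call was lost without any one of B73 arrays 1, 2 and 3 or H99 arrays 2, 3 and 4. The 4 other aquaporins did not pass: NIP3-1 lay at -0.21, PIP1-1 at -0.07, PIP1-3 at 0.05 over 7 clones and SIP2-1 at 0.16. Of the 6 aquaporins 4 were thus positive and 2 negative, which held when arrays were scaled to one spread or to the same quantiles, although PIP2-1 no longer passed under either.

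Further genes that passed stood in no list. The largest positive contrast was that of prp2, at 0.52 ± 0.115 (SE; limma adjusted p = 0.00846). Its B73 arrays gave -0.38, -0.69 and -0.38 forward and -0.08 and -0.15 reversed, and its H99 arrays 0.46, 0.06 and 0.11 forward and 0.26 and 0.05 reversed. Every B73 array was negative and every H99 array positive. MFS18, a gene known from the male flower, lay between -0.66 and -0.11 in B73 and between -0.04 and 0.21 in H99, and both of its clones passed, at 0.35 and 0.57.

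For MFS18 the contrast was 0.46 ± 0.109 (SE; limma adjusted p = 0.0115), 0.66 forward and 0.15 reversed. HD6 ran from -0.19 to 0.10 in B73 and from 0.13 to 0.40 in H99, with a contrast of 0.38 ± 0.087 (SE; limma adjusted p = 0.00956). The ferritin gene fer1, which stores iron in plastids, was positive at 0.27 ± 0.092 (SE; limma adjusted p = 0.048). It was close to the threshold: the call held without B73 array 4 or 5 and was lost without any other array.

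On the negative side tgase, a transglutaminase that cross-links proteins, lay at -0.35 ± 0.101 (SE; limma adjusted p = 0.0238), with a forward value of -0.55 and a reversed value of -0.05. LOC606398 had -0.40, LOC732725 -0.34, LOC541824 -0.31, rld2 -0.30, PK -0.30 and GRF12 -0.23. Of these, LOC732725 had all H99 arrays between -0.19 and -0.07 and all B73 arrays between 0.05 and 0.37. The call of LOC606398 was lost without any one of B73 arrays 1, 2 and 3 or H99 arrays 2, 3 and 4, that of LOC541824 without any of the forward arrays, and that of tgase without any of these but B73 array 2. PK was lost without B73 array 1 or 3 or H99 array 2 or 3, and rld2 without B73 array 3 or H99 array 2 or 3.

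GRF12 passed with a limma adjusted p of 0.0401 and lost its call without any one array other than B73 array 4 or 5. It was named after its values were seen, as were the other GRF genes. Of 6 GRF genes 3 were positive and 3 negative, and the next lowest p was that of GRF14, at -0.21 (limma adjusted p = 0.0649).

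Of the 26 genes, 23 had B73 and H99 means on opposite sides of 0, against 102 of all 213 named genes. A large contrast favours opposite sides, so that the count is a description. It does not place the hybrid between the inbreds, since whether the reversed arrays had been turned is not stated. With more forward than reversed arrays, a dye effect would stay in the mean of each inbred, although it cancels in the contrast. The place of the hybrid was not tested. The exceptions were ald1, PIP2-1 and PK, whose means both lay on 1 side. In 21 of the 26 the B73 mean was the larger in size, as in 151 of the 213. The SD over the spots of an array was 0.218 to 0.362 for B73 and 0.172 to 0.228 for H99. The part of this spread in the larger B73 means was not tested. GPC1, gpc2, NIP2-3, HD6 and adh1 had the larger mean in H99.

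No gene of the tubulin and actin list passed, although the list held 121 clones. Of the 10 genes 5 were positive and 5 negative, with a median of -0.03. The alpha-tubulin genes tua3, tua4 and TUA1, subunits of microtubules, lay at 0.17 (16 clones), 0.12 (57 clones) and 0.11 (30 clones), and tua5 and tua6 at -0.06 and -0.16. The arrays of tua4 did not overlap, with an SD over arrays of 0.025 in B73 and 0.046 in H99. Its contrast did not pass at the SE of 0.070 from limma (95% interval -0.03 to 0.26, limma adjusted p = 0.249). That SE draws the variance of a gene towards one common to all features. Single alpha-tubulin clones did pass, 26 positive and 5 negative of 115, against 9.15% positive and 11.2% negative of all clones tested.

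The beta-tubulin genes tub3 and tub6, at 0.01 and -0.12, the profilins PRO4 and PRO5, at -0.08 and -0.10, and the actin-depolymerising factor gene ADF3, at 0.19, complete the list. Their adjusted p in limma was 0.165 or more.

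The other lists held no gene that passed. Translation factors and ribosomal proteins had 8 positive and 9 negative genes and a median near 0; tif5A and eif5a, of the initiation factor 5A family, were the lowest in p, at 0.23 and 0.26 (limma adjusted p = 0.0566 and 0.0649). Chaperones had 6 positive and 3 negative genes, with the small heat shock gene hsp18f at 0.29 and the calreticulin gene crt2 at 0.22. The hormone list had 4 positive and 2 negative genes and a median of 0.06; lowest in p were the 2 negative ones. Of these, hp2, of the phosphotransfer proteins of cytokinin signalling, lay at -0.27 and aux1, named for auxin transport, at -0.21. Stress and redox genes had 2 positive and 6 negative members and a median of -0.03; lowest in p were the 2 positive ones, the glutathione transferases gst41 and gst10, at 0.20 and 0.23.

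The cell cycle list ran from the kinase gene cdc2 at -0.16 to the inhibitor gene krp4 at 0.14. Sucrose synthase sus1 and the inositol phosphate synthase INO1 lay at 0.08 and -0.08 over 11 and 19 clones. In the methionine list cgs1, of the cystathionine gamma-synthase step, lay at -0.18 and the S-adenosylmethionine synthetase gene sam2 at 0.08 over 32 clones. The cell wall genes cad, for a cinnamyl alcohol dehydrogenase of lignin, and RGP lay at -0.27 and -0.08, and the protein turnover genes LON2 and cys2 at -0.20 and -0.03. Apart from tif5A and eif5a, the genes named from the lists without a call had an adjusted p of 0.0728 or more in limma.

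Clones of one gene often disagreed. Among 110 genes with 2 or more clones, 5 passed as means: GPC1, gpc2, MFS18, PIP2-1 and adh1. In 4 of these all clones had the sign of the mean, and gpc2 had clones of both signs. Of the 36 genes with 5 or more clones, all clones shared 1 sign only in GPC1 and PIP2-1. Single clones past the threshold were found in 33 of the 36 genes, and in 12 they were of both signs, as in INO1, with 2 positive and 5 negative clones. Of the 509 clones of the 36 genes 109 passed (21.4%), near the 20.3% of all clones tested. At such a share a gene with many clones is apt to hold 1 that passed. The SD of the contrast was 0.24 over single clones of these genes and 0.12 over their means, against 0.23 over the 103 genes with 1 clone.

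The 21 genes with 1 clone, which include ZAG3, MNB1b and NIP2-3, have no second clone against which to check their values. Clones of one name can represent different parts or close relatives of a gene, and the part of this in the disagreement was not tested.

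**Figure D3:**
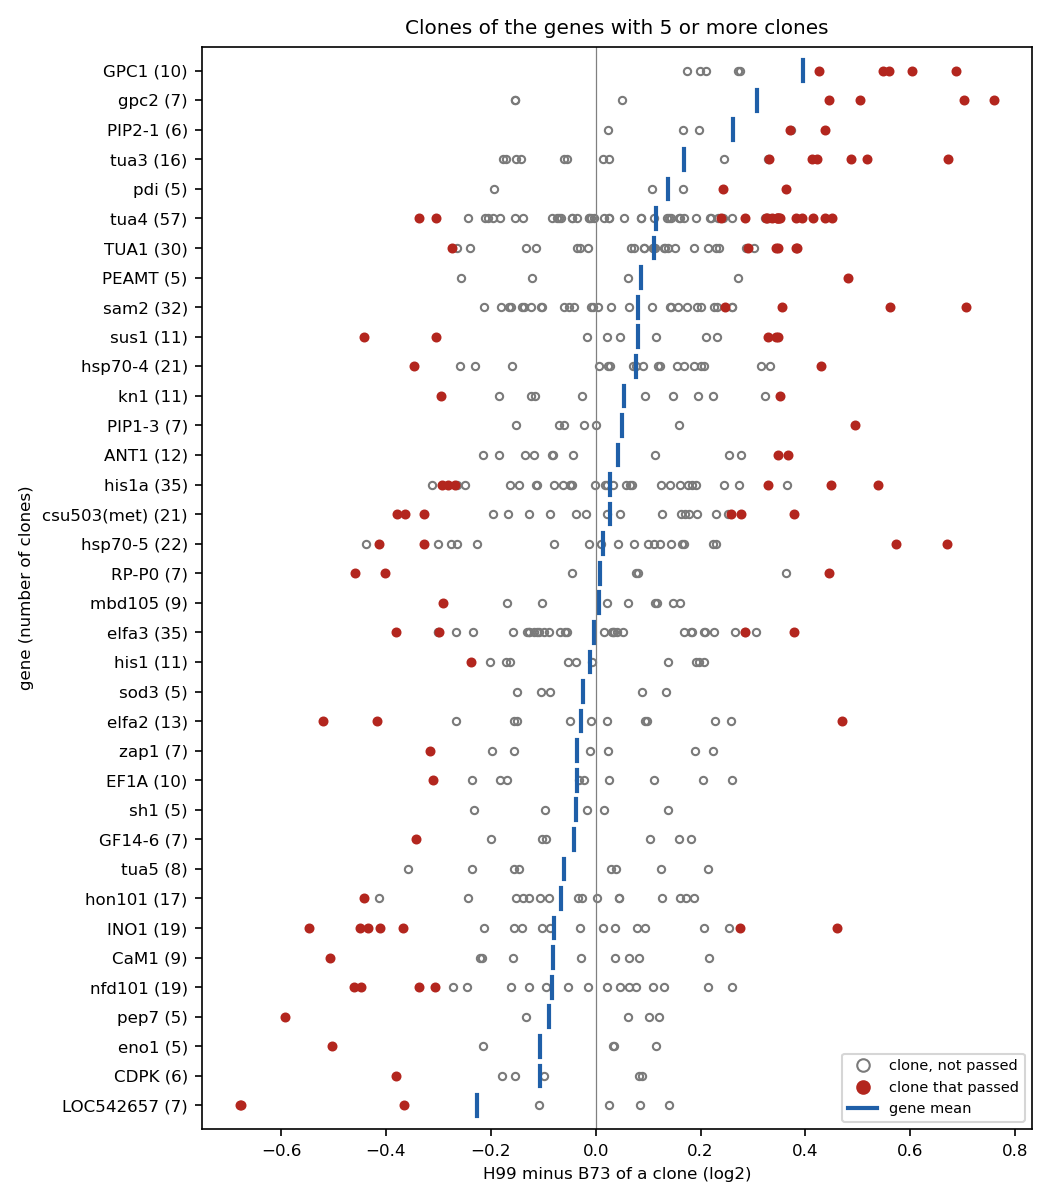
Inbred contrast (x axis, log2) of every clone of the 36 genes with 5 or more clones, with the number of clones in brackets. Red points are clones that passed in a fit with each clone on its own, open circles did not, and blue bars are gene means. In GPC1 and PIP2-1 all clones lie right of 0, while in most genes clones lie on both sides and the mean is close to 0.

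The 2 dye orientations are separate arrays, so each gives the contrast on its own. Across all 4763 features the forward and the reversed contrast correlated at r = 0.36 (rho = 0.33) and shared a sign in 60.9%. For the 213 named genes r was 0.29, with 1 sign in 62.9%, and for the 36 genes with 5 or more clones r was 0.76, with 1 sign in 29 of 36. These are descriptions over features of the same arrays. All 26 genes that passed had 1 sign in both orientations, which their selection on the mean of both favours, and in 24 the forward contrast was the larger. The SD of the contrast over all features was 0.32 forward and 0.19 reversed.

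Alone, the 6 forward arrays gave 65 named genes and the 4 reversed arrays 3. The 3 were ZAG3, gpt and LOC606466; gpt and LOC606466 are named after their values were seen. Both were large on the reversed arrays only: gpt lay at 0.73 reversed and 0.13 forward, and LOC606466 at 0.63 reversed with the opposite sign forward. With orientation as a term in the fit, 37 named genes passed (17.4%) against 26.1% of all features.

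The contrast differed between orientations, by the interaction in limma, for 10 named genes (4.69%) against 3.67% of all features. Among them were 2 genes that had passed, NIP2-3 and Pti1d, and 6 others described here, PP2C, hdt102, hsp18f, hp2, LON2 and LOC606466. The count of features with such a difference at an adjusted p under 0.05, 175, changed when any 1 array was left out. It was 232 without B73 array 1, 320 without B73 array 2 and 520 without H99 array 1. It was 16, 6, 6, 5, 3, 2 and 0 without B73 array 4, B73 array 3, H99 array 3, H99 array 2, H99 array 5, H99 array 4 and B73 array 5. In this last setting 1053 of 4753 features still had an unadjusted p under 0.05 in limma.

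**Figure D4:**
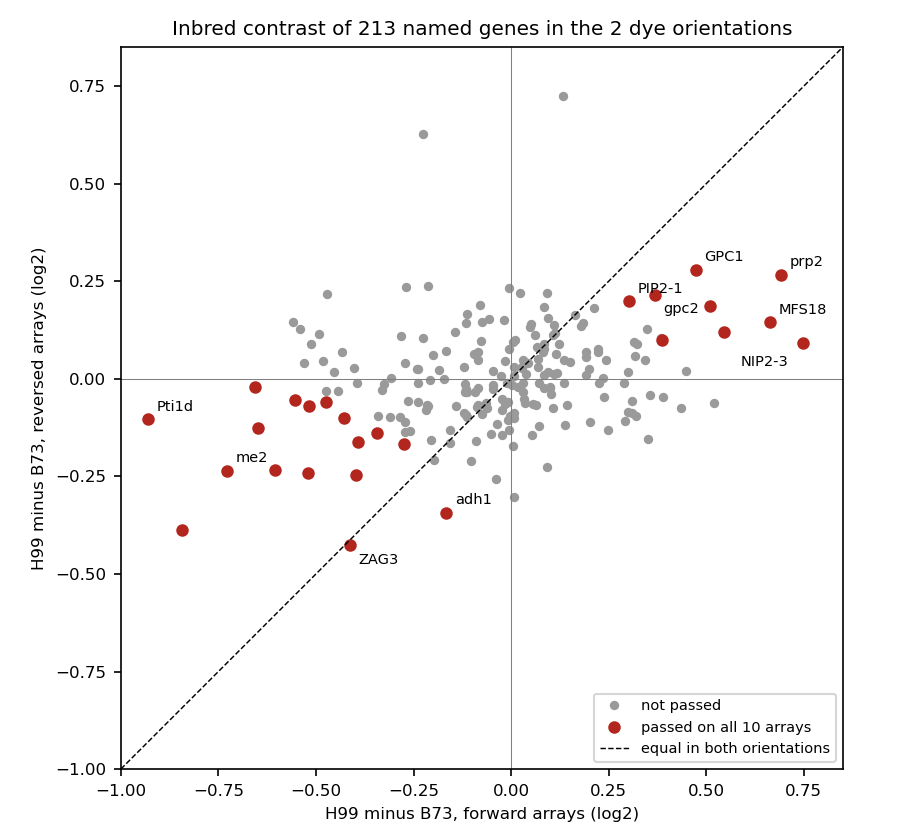
Inbred contrast of the 213 named genes on the forward arrays (x axis, log2) and on the reversed arrays (y axis, log2); red points passed over all 10 arrays, grey points did not, and the dashed line marks equal values. All red points lie in the lower left or upper right quadrant, mostly nearer to the horizontal axis than the dashed line, with ZAG3 on the line and adh1 beyond it; the 2 grey points at the top are gpt and LOC606466.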

How the data were processed

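The values used are the deposited log2 ratios of 10 cDNA arrays, 1 per spot. The authors' median-centring is seen from the values, with every array's median at 0 or -0.001; how the arrays were scanned, corrected for background, normalized and filtered is not stated in the labels. Per the labels' protocols, 1 µg of poly(A) RNA was labelled separately with Cy3 or Cy5 for each array. Channel intensities were not analysed here.

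Each 3 successive spots were averaged to 1 clone, and clones of one name in the platform annotation, which is old, to 1 gene; a RefSeq gene table (Zm-B73-REFERENCE-NAM-5.0), consulted for names only, held 208 of the 213. A feature was tested with at least 3 values per inbred and 1 per orientation, which left out 39 unnamed clones. The model in limma 3.58.1 under R 4.3.3 had 1 mean for each inbred, all 10 arrays sharing one estimate of the spread, and p-values were adjusted by Benjamini and Hochberg over 4763 features at 0.05. Orientation was not in the fit, since a dye effect common to both inbreds cancels in the contrast. The SE comes from limma. Precision is limited by the number of arrays. The fits were tested on simulated data with independent noise for each feature and no effect of dye orientation. That test does not cover the differences between orientations seen here.

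Alternatives covered orientation, turned arrays, the replicate number as a block, single arrays left out, scaling, variance, array weights, averaging, missing values and the features adjusted over. The members and lists were chosen with earlier results of these data known; 130 genes were assigned to 16 lists from their symbols, and lists are described by counts and medians with no test. Named in the text are genes that passed (up to 15 per sign by size, apart from those not reported), genes with 5 or more clones of 1 sign, up to 2 further genes per list by p, and all genes of the glycolysis and the tubulin lists. Other genes named for family comparisons (GRF12, m28, zmm31, kn1, zap1, the other GRF genes, PIP1-1, PIP1-3, gpt, LOC606466) were chosen after their values were seen. Some results for other genes are not reported here.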

Additional observations from a re-analysis of the deposited data

Results flagged for a closer look

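On 4 of the 161 groups of 5 arrays looked at for 81 named genes, 1 array stood apart from the other 4; chance sets apart about 1 in 20 such groups. For gst41, H99 array 3 lay at 0.24 and the other H99 arrays between 0.02 and 0.08. For cgs1, H99 array 3 lay at -0.61 and the others between -0.16 and -0.12. For GRF12, B73 array 3 lay at 0.29 and the others between 0.12 and 0.15; without it GRF12 no longer passed. For LOC606466, B73 array 3 lay at -0.0717 and the others between -0.73 and -0.59.

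For 8 of the genes described, the contrast differed between the dye orientations by the interaction in limma, with p adjusted over all features. The reversed contrast minus the forward one was -0.66 for NIP2-3 (adjusted p = 0.0405 in limma), which lay at 0.75 on the forward and 0.09 on the reversed arrays. Pti1d differed by 0.83 (adjusted p = 0.0436 in limma), from -0.93 to -0.10. PP2C differed by 0.60 (adjusted p = 0.0417 in limma), from -0.51 to 0.09, and hdt102 by 0.57 (adjusted p = 0.0436 in limma), from -0.53 to 0.04. hsp18f differed by -0.58 (adjusted p = 0.0436 in limma), from 0.52 to -0.06. The difference was 0.67 for hp2 (adjusted p = 0.0408 in limma), from -0.54 to 0.13, and 0.69 for LON2 (adjusted p = 0.0405 in limma), from -0.47 to 0.22. LOC606466, named after its values were seen, differed by 0.85 (adjusted p = 0.0462 in limma), from -0.23 to 0.63. In 6 of the 8 the reversed contrast had the opposite sign, and in all but LOC606466 it was the smaller in size. In limma no feature had such a difference without B73 array 5 (1053 at an unadjusted p under 0.05) or when each had its own variance (1182 at an unadjusted p under 0.05).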

How the results depend on the processing

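The count of named genes that passed, 26, was 65 on the forward arrays alone and 3 on the reversed arrays alone. It was 0 with the reversed arrays of both inbreds or of B73 turned, and 46 with those of H99 turned. It was 16 with the replicate block, 16 with arrays scaled to one spread, 16 with quantile normalization and 57 with array weights. Leaving out single arrays gave 14 to 41. With clones as features 168 clones of named genes passed, and counting only genes with at least 3 clones leaves 4 of the 26. Adjusted over the named genes alone, 35 passed, and with orientation as a term 37. Over all features the count of 926 became 1939 forward, 144 reversed, 0 with both turned, 2 with B73 turned, 407 scaled, 549 by quantiles, 363 with each feature's own variance and 1729 with array weights, and 490 to 1288 without single arrays; the replicate block gave 669 and H99 turned 1299. The split was 44.1% positive, and 81.9% on the reversed arrays alone.

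The interaction count of 175 became 1351 with both turned, 1952 with B73 turned, 425 with H99 turned, 14 scaled, 0 with own variances, 767 with array weights and 0 to 520 without single arrays. The correlation between the orientations, 0.36, became -0.36 with both turned, which follows by construction. It was -0.44 with B73 turned, 0.44 with H99 turned and 0.22 to 0.43 without single arrays. The cause of these changes was not tested, other than that fewer arrays or genes enter some settings.

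Of the 26 genes, 8 passed in every setting other than turned arrays and single orientations, among them ZAG3, MNB1b, GPC1, sdg110, HD6, gpc2 and LOC732725. Both scalings ended the call of 10, among them Pti1d, PK, ald1, PIP2-1, rld2, LOC541824, LOC606398, GRF12 and fer1. Only adh1 changed sign, to 0.0376 with both turned. Of 416 list medians under alternatives 43 moved beyond the spread of arrays. The replicate numbers of the titles did not pair the arrays: deviations of same-numbered arrays correlated between -0.28 and 0.30, and in 1 of 5 numbers the best partner was the own number.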
